A study of Mus musculus with 8 samples.

Results

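The gastric metaplasia genes are 10 genes, most of them of the mucus-secreting stomach lining. Their transcripts were counted in cells sorted for EpCAM from pancreatic tumours. The set holds the trefoil factors Tff1, Tff2 and Tff3, the gastrokines Gkn1, Gkn2 and Gkn3, the protease gene Ctse, and Anxa10, Vsig1 and Dmbt1. The genes were chosen by symbol, and all 10 were found among the 24537 genes of the count table. All 10 also passed the filter on low counts, together with 14711 genes in all. The cells came from pancreatic tumours of FVB/NJ mice whose alleles include Tp53f/f, Rosa26LSL-Luc and Pdx1-Cre, in which Cre, driven by the Pdx1 promoter, switches on luciferase and removes p53. Both arms had the same genotype, and both received gemcitabine, a nucleoside analogue used as chemotherapy, at 50 mg/kg on days 1 and 4. The control arm also received IgG and the treated arm an antibody against LIF, a cytokine of the interleukin-6 family, each at 25 mg/kg on days 1, 3 and 5. Treatment began at an age of 42 to 43 days, and EpCAM-positive cells were sorted from whole dissociated tumours on day 6, with 4 mice and 4 libraries in each arm. The Pdx1 promoter is active in pancreatic progenitors and also in the duodenum and the lower stomach. The sort on EpCAM is aimed at epithelium and does not tell tumour cells from other epithelial cells. The libraries also held RNA of myeloid marker genes, as given below. Libraries are named below by the last part of their labels, which holds the mouse number and ends in G for IgG and GA for anti-LIF.

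Gastric metaplasia is the appearance of stomach-type mucous cells in another tissue. Early pancreatic lesions are known to switch on genes of the gastric pit (foveolar) cell and of the mucous neck cell, which the normal pancreas scarcely expresses. Trefoil factors are small secreted peptides with a disulfide-bonded trefoil domain, which are packed with mucins and help epithelium to close wounds. Gastrokines are secreted proteins of the stomach surface with a BRICHOS domain, cathepsin E is an intracellular aspartic protease of surface mucous cells, and DMBT1 is a large scavenger-receptor glycoprotein of mucosal fluids that binds bacteria and trefoil factors.

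With anti-LIF, Ctse and Vsig1 fell and the other 8 genes did not pass the test. Tff1 differed by nearly as much as Ctse, with a wider error, and narrowly missed the threshold. Of the 10 log2 fold changes, 9 were negative and that of Tff3 was positive, with a median of −0.72 against −0.01 for all tested genes. Negative values were found for 7448 of the 14711 tested genes. A list of 35 epithelial identity genes, described below, had a median of −0.89. Among all tested genes 16.5% were called lower and 15.7% higher, so 2 lower and 0 higher calls among 10 genes lie near the background. Scaled by library size alone, those shares over all tested genes were 24.2% and 9.72%, and 3 of the 10 were called lower. In bulk samples, fewer cells of a type and less RNA per cell cannot be told apart.

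The sorted libraries did not hold the same mixture of RNA in the arms. Counts in genes ran from 15135457 to 18972281 per library. A list of 35 epithelial identity genes took 0.8291% to 0.997% of counts with IgG and 0.270% to 0.525% with anti-LIF, and 29 of its 35 tested genes were called lower. A list of myeloid genes, with 27 tested, took 1.57% to 2.05% with IgG and 3.05% to 4.91% with anti-LIF. In both arms the myeloid list thus took more of the counts than the epithelial list. Shares of lists that hold different genes are not shares of cells. The 31 acinar genes in the table took 0.0485% to 0.264% and 0.378% to 2.08%. The sort marker Epcam fell from 575 ± 76.8 to 305 ± 74.8 CPM, and Lif stood at 81.4 ± 15.6 and 127 ± 7.08 CPM (CPM, counts divided by the TMM-scaled library size, mean ± SD, n = 4 each). Of 10 genes in the table for acid, pepsin and hormone-secreting gland cells of the stomach, Chia1 and Lipf were at 0 in all 8 libraries. The summed share of that list was 0.00128% to 0.00320% with IgG and 0.000183% to 0.00229% with anti-LIF. Atp4b, a subunit of the gastric proton pump, had 2 counts over the IgG arm and 0 over the anti-LIF arm, and Gif, the intrinsic factor gene, had 5 and 1. The list was not empty, however. In the same order of arms, Pgc had 610 and 201 counts, Ghrl 498 and 553, and Atp4a 109 and 50. These 3 genes passed the filter on low counts and were called in neither direction. Gast (140 and 20 counts), Pga5 (8 and 30) and Kcne2 (5 and 2) were not tested. The part of the epithelial, myeloid and acinar shares in the results below was not tested. Values scaled to a list are given beside some results. Such scaling cannot tell fewer cells from less RNA per cell, since the genes of the list differ between the arms themselves.

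The gastrokine genes lie together on mouse chromosome 6 (build mm10): Gkn1 at 87345653 to 87350915 on the minus strand, Gkn2 at 87373365 to 87379494 on the plus strand and Gkn3 at 87383319 to 87388935 on the minus strand. Their promoters are shown because Gkn1 and Gkn2 were each other's closest gene in pattern over the 8 libraries, while Gkn3, beside them, followed other genes. RefSeq promoter sequences (GRCm38.p6, the same assembly as mm10, 250 bases before to 50 after the start site) matched 5 of the 10 genes: the 3 gastrokines, Anxa10 and Vsig1. Each sequence reads 5′ to 3′ on the gene's strand, and capitals mark the GATA-type motif AGATAA and the TATA-type motif TATAAA, searched on both strands.
Gkn1 promoter, chr6:87350866-87351165, minus strand: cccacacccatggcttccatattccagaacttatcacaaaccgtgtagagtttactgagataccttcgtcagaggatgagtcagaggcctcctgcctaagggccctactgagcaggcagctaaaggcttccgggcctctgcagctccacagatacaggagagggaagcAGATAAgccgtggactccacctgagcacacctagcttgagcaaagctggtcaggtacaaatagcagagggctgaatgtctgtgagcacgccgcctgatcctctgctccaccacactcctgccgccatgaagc
Gkn2 promoter, chr6:87373115-87373414, plus strand: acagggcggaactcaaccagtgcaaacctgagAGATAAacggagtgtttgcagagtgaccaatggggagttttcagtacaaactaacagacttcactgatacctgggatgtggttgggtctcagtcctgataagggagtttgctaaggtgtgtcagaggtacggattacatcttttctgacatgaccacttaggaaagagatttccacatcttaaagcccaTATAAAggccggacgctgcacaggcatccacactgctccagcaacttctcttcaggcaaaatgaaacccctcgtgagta
Gkn3 promoter, chr6:87388886-87389185, minus strand: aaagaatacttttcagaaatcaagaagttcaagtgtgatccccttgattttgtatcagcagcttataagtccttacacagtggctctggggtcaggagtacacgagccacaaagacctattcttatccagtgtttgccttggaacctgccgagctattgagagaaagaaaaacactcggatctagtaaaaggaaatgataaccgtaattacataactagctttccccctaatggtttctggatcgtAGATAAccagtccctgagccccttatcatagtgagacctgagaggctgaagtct

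Each of the 3 gastrokine promoters held 1 copy of AGATAA. Its first base lay 82 bases before the start site in Gkn1, 218 before it in Gkn2 and 4 before it in Gkn3. The same letters occur in 11.18% of 32851 RefSeq promoter windows of that length. TATAAA was found in the Gkn2 window, 29 bases before the start, and in that of Anxa10, 32 bases before it, and it occurs in 13.62% of all windows. The STAT-type motif TTCNNNGAA, which reads the same on both strands and occurs in 8.3% of windows, and the FOXA-type motif TGTTTAC, in 3.65%, were in none of the 5 windows. A match in these letters is a description of the sequence and not evidence of binding.

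**Figure D1:**
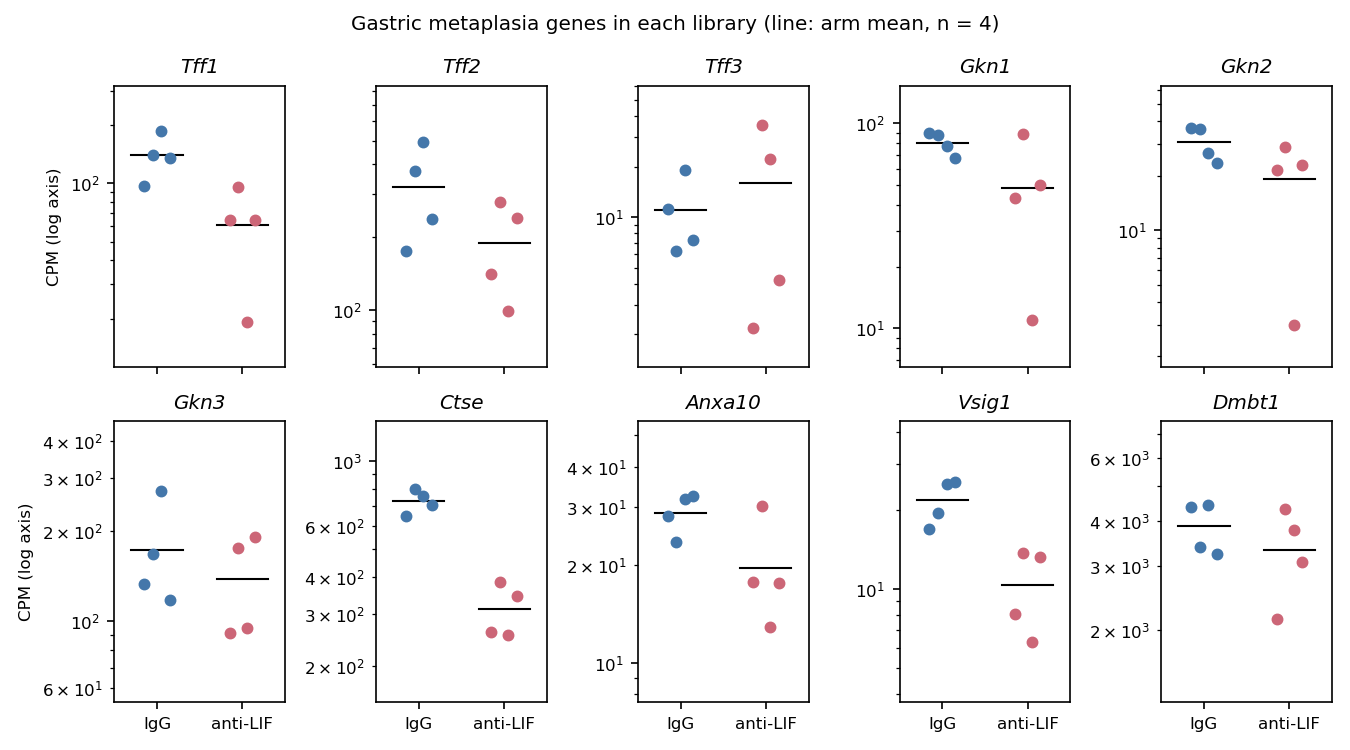
CPM of each of the 10 genes (log axis) in the 4 IgG libraries (blue) and the 4 anti-LIF libraries (red), with a line at the arm mean. The arms do not overlap for Tff1, Ctse and Vsig1, and anti-LIF library PCC_354_GA is the lowest of the 8 libraries for 7 of the 10 genes.

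Trefoil factor genes form a cluster on chromosome 17, all on the minus strand: Tff3 at 31125306 to 31129611, Tff2 at 31141062 to 31144282 and Tff1 at 31161396 to 31165053. Tff1, the peptide of gastric pit cells, stood at 97.0, 140, 187 and 135 CPM in IgG libraries PCC_203_G, PCC_343_G, PCC_345_G and PCC_393_G. In anti-LIF libraries PCC_227_GA, PCC_310_GA, PCC_354_GA and PCC_391_GA it stood at 64.5, 95.1, 19.1 and 64.5 CPM. All 4 IgG libraries thus lay above all 4 anti-LIF libraries, but only just, since IgG library PCC_203_G and anti-LIF library PCC_310_GA nearly met. The log2 fold change was −1.20 ± 0.41 (SE), a 2.30-fold lower level, and the adjusted p of 0.0520 (edgeR quasi-likelihood test, Benjamini-Hochberg over all tested genes) missed the threshold of 0.05. DESeq2 and limma-voom called it lower on the same libraries (adjusted p = 0.0130 and 0.0424). So did the quasi-likelihood test without anti-LIF library PCC_310_GA (−1.49, adjusted p = 0.0330) or without anti-LIF library PCC_354_GA (−0.90, adjusted p = 0.0329). Leaving out any other library gave no call, with an adjusted p of up to 0.119. Scaled to the epithelial list the difference was −0.23 (adjusted p = 0.582).

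The Tff1 signal may not come from 1 strand alone. The gene LOC102631757 (chromosome 17, 31152752 to 31163052) lies on the opposite strand. It overlaps 1657 bases of the Tff1 locus, introns included, where the counted Tff1 transcript is 473 bases long. It was counted at 0.570 to 0.673 times the Tff1 count in every one of the 8 libraries. Of all tested genes it was the closest to Tff1 in pattern. How the counting treated strand is not stated in any label or header, and the overlap of the exons alone was not measured. How many reads the pair share is therefore not known.

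Tff2, the trefoil peptide of mucous neck cells and of the metaplastic lineage known as SPEM, was the most abundant trefoil gene. It ranged from 175 to 494 CPM with IgG and from 99.2 to 278 CPM with anti-LIF. The arms overlapped, and the difference of −0.76 (95% interval −1.65 to 0.14, adjusted p = 0.169) was within the spread between tumours. Its sign turned, to 0.15, when the epithelial list set the scale.

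Tff3, the trefoil peptide of intestinal goblet cells, behaved apart from its neighbours. It stood at 11.2, 6.26, 19.0 and 7.30 CPM in the IgG libraries, in the order above. With anti-LIF it stood at 2.17, 35.5, 22.1 and 4.23 CPM in libraries PCC_227_GA, PCC_310_GA, PCC_354_GA and PCC_391_GA. The anti-LIF arm therefore holds both the highest and the lowest values of the 8, spread over 16.4-fold against 3.04-fold with IgG. The difference of 0.55 ± 0.77 (SE, adjusted p = 0.617, 95% interval −1.20 to 2.29) changed sign with the setting: it was −0.20 without anti-LIF library PCC_310_GA, −0.11 by limma-voom and −0.32 scaled to the myeloid list. Scaled to the epithelial list it was 1.42 (adjusted p = 0.0546), where the median of all tested genes was 1.00.

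The make-up of the trefoil cluster is shown by each gene's share of the cluster's summed FPKM, which corrects for transcript length. Tff2 held 62.6% ± 5.54 with IgG and 67.1% ± 5.07 with anti-LIF, and Tff1 held 34.5% ± 4.88 and 25.0% ± 8.10 (mean ± SD, n = 4). Tff3 held 1.23% to 4.60% in 6 of the libraries but more in anti-LIF libraries PCC_310_GA and PCC_354_GA, up to 18.4%. The ratio of Tff1 to Tff2 counts, which does not depend on how libraries are scaled, was 0.555, 0.374, 0.379 and 0.564 with IgG and 0.459, 0.342, 0.193 and 0.268 with anti-LIF. That ratio differed by −0.61 on the log2 scale (exact two-sided permutation p = 0.114; 0.514 after adjustment over the 6 ratios tested within the trefoil and gastrokine clusters). None of the 6 ratios passed. The smallest p that 4 libraries against 4 can give is 0.0286, before adjustment. With adjustment over 6 ratios, a ratio that reached this p alone would still miss the threshold. The lack of a call therefore does not show that the ratios were unchanged.

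**Figure D2:**
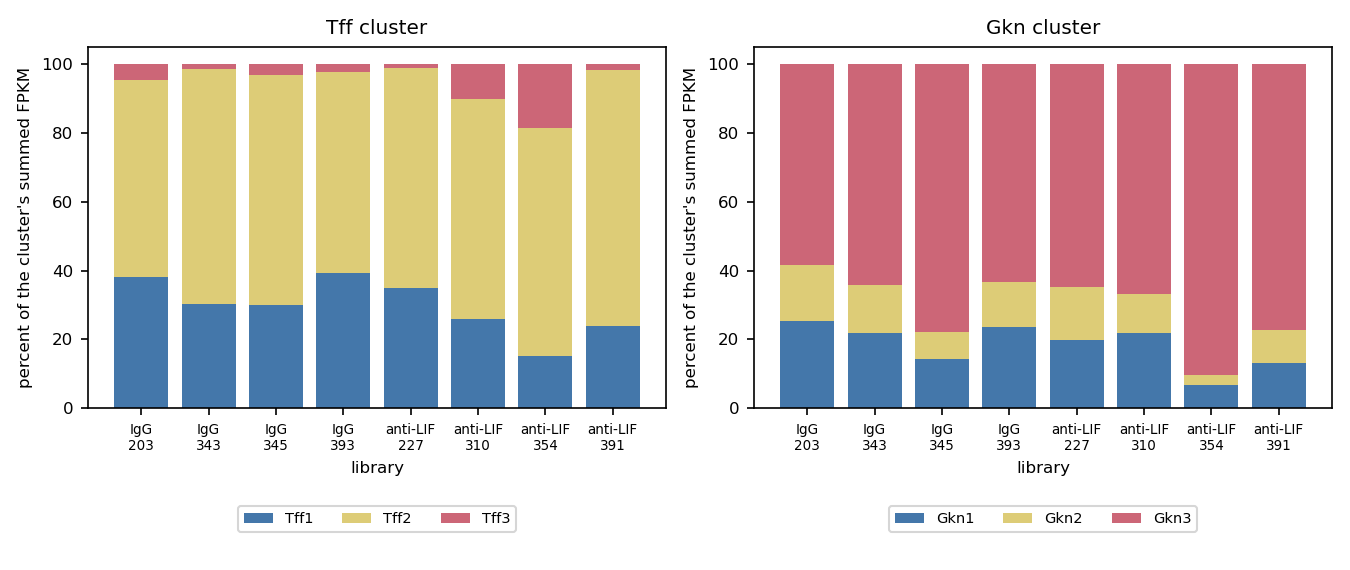
Share of each trefoil gene (left) and each gastrokine gene (right) in the summed FPKM of its cluster, as stacked bars for each library. Tff2 and Gkn3 take the largest part in every library, the share of Tff3 reaches 18.4% in anti-LIF library PCC_354_GA, and the share of Gkn3 there is 90.3%.

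Gkn1, a secreted protein of gastric surface cells also known as AMP-18, was even across the IgG arm at 89.5, 87.8, 77.3 and 67.9 CPM. In anti-LIF libraries PCC_227_GA, PCC_310_GA, PCC_354_GA and PCC_391_GA it stood at 43.1, 88.7, 11.0 and 50.3 CPM. Of the anti-LIF libraries, 3 lay below all IgG libraries, while library PCC_310_GA lay just under the highest of them. The highest and lowest libraries differed by 1.32-fold with IgG and by 8.07-fold with anti-LIF. The difference between arms was −0.74 (95% interval −1.82 to 0.34, adjusted p = 0.258).

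Gkn2, whose product is known to pair with TFF1 through a disulfide bond, followed Gkn1 closely. It stood at 37.0, 36.2, 26.7 and 23.6 CPM with IgG and at 21.6, 28.8, 2.97 and 23.0 CPM with anti-LIF. Anti-LIF library PCC_354_GA was again far below the rest, and the difference was −0.69 (95% interval −1.87 to 0.48, adjusted p = 0.331). The 2 genes kept a ratio of Gkn1 to Gkn2 counts of 1.99 to 3.71 in all libraries, with a difference between arms of 0.01 on the log2 scale (exact two-sided permutation p = 1). Under scaling to the epithelial list both differences turned positive, to 0.21 and 0.30.

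Gkn3, the third gastrokine, took 58.2% to 90.3% of the cluster's summed FPKM. It ranged from 117 to 273 CPM with IgG and from 91.3 to 191 CPM with anti-LIF, and the arms overlapped in part: 2 anti-LIF libraries lay below all IgG libraries, and 1 IgG library lay above all anti-LIF libraries. The difference of −0.32 (95% interval −1.07 to 0.42, adjusted p = 0.478) was well within the spread, and it turned to 0.58 when scaled to the epithelial list. Anti-LIF library PCC_354_GA, so low for Gkn1 and Gkn2, was close to library PCC_227_GA in Gkn3. As a result the ratio of Gkn2 to Gkn3 counts went from 0.237 in library PCC_227_GA to 0.0312 in library PCC_354_GA.

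Ctse (chromosome 1, 131638314 to 131675507, plus strand, 10 exons) gave the firmest difference of the 10. It stood at 648, 803, 760 and 708 CPM in IgG libraries PCC_203_G, PCC_343_G, PCC_345_G and PCC_393_G, and at 261, 387, 254 and 346 CPM in anti-LIF libraries PCC_227_GA, PCC_310_GA, PCC_354_GA and PCC_391_GA. The arms were far apart, and the highest and lowest libraries within an arm differed by 1.24-fold with IgG and 1.52-fold with anti-LIF. Ctse fell by 1.23 on the log2 scale (SE 0.16, adjusted p = 0.00313, edgeR quasi-likelihood test), and it was called lower with each library left out in turn (adjusted p from 0.00371 to 0.0127). Scaled to the epithelial list, the difference was −0.26 and did not pass (adjusted p = 0.301). On that scale the median of all tested genes was 1.00 and 1.26% of them were called lower. The call was lost under that scaling alone and was kept in the other 17 alternatives.

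Vsig1 (chromosome X, 140907608 to 140939472, plus strand, 7 exons) encodes an immunoglobulin-family junction protein of gastric epithelium. It stood at 17.0, 19.5, 25.3 and 25.7 CPM with IgG and at 8.05, 13.8, 6.30 and 13.3 CPM with anti-LIF. The arms did not overlap, although anti-LIF libraries PCC_310_GA and PCC_391_GA were near the lowest IgG library. Vsig1 fell by 1.08 on the log2 scale (SE 0.27, 2.12-fold lower, adjusted p = 0.0169) and was called with each library left out (adjusted p from 0.0167 to 0.0448). Relative to the epithelial list it differed by −0.15 (adjusted p = 0.608). Together with Tff1 and Ctse it is 1 of 3 genes whose IgG libraries all lay above the anti-LIF libraries, against 18.2% of all tested genes.

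Anxa10 (chromosome 8, 62057042 to 62123193, minus strand, 12 exons) encodes an annexin of gastric mucosa. It ranged from 23.4 to 32.4 CPM with IgG and from 12.9 to 30.2 CPM with anti-LIF. Anti-LIF library PCC_310_GA alone reached the IgG range, and the other 3 lay below it at 12.9 to 17.7 CPM. The difference was −0.56 (95% interval −1.11 to −0.02 before adjustment, adjusted p = 0.103), and without library PCC_310_GA it was −0.84 and passed (adjusted p = 0.0120). On the scale of the epithelial list the sign turned, to 0.41.

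Dmbt1 (chromosome 7, 131032076 to 131121628, plus strand, 48 exons) had the most counts of the 10 genes in every library, from the longest transcript, and took 67.2% to 78.0% of their summed counts with IgG and 76.4% to 87.9% with anti-LIF. It ranged from 3257 to 4451 CPM with IgG and from 2142 to 4314 CPM with anti-LIF. Anti-LIF libraries PCC_227_GA and PCC_391_GA lay below the IgG range, the second only slightly at 3082 CPM, and the other 2 lay within it. The difference was −0.22 (95% interval −0.75 to 0.31, adjusted p = 0.505). Relative to the epithelial list there were 37.9 to 55.9 Dmbt1 counts for every 100 counts of that list with IgG and 57.7 to 88.6 with anti-LIF. On that scale Dmbt1 was called higher (0.74, adjusted p = 0.0273), as were 75.7% of all tested genes. Its value lay below the median of all tested genes there, which was 1.00. Scaled to the myeloid list it was called lower (−1.24, adjusted p = 0.00256), so its direction depends on the scale.

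Scaling to the epithelial list moved the median of all tested genes to 1.00 on the log2 scale, and scaling to the myeloid list moved it to −1.11. Library size alone moved it to −0.16. With the epithelial list as the base, 0 of the 10 genes were called lower, 1 (Dmbt1) was called higher and their median was 0.26. With the myeloid list as the base, 9 of 10 were called lower, all but Tff3, and so were 81.9% of all tested genes. The 9 genes other than Dmbt1 summed to 17.9 ± 4.48 counts per 100 epithelial-list counts with IgG and 18.2 ± 4.48 with anti-LIF (mean ± SD, n = 4). As a share of all counts the same 9 genes took 0.162% ± 0.0291 and 0.0778% ± 0.0296.

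**Figure D3:**
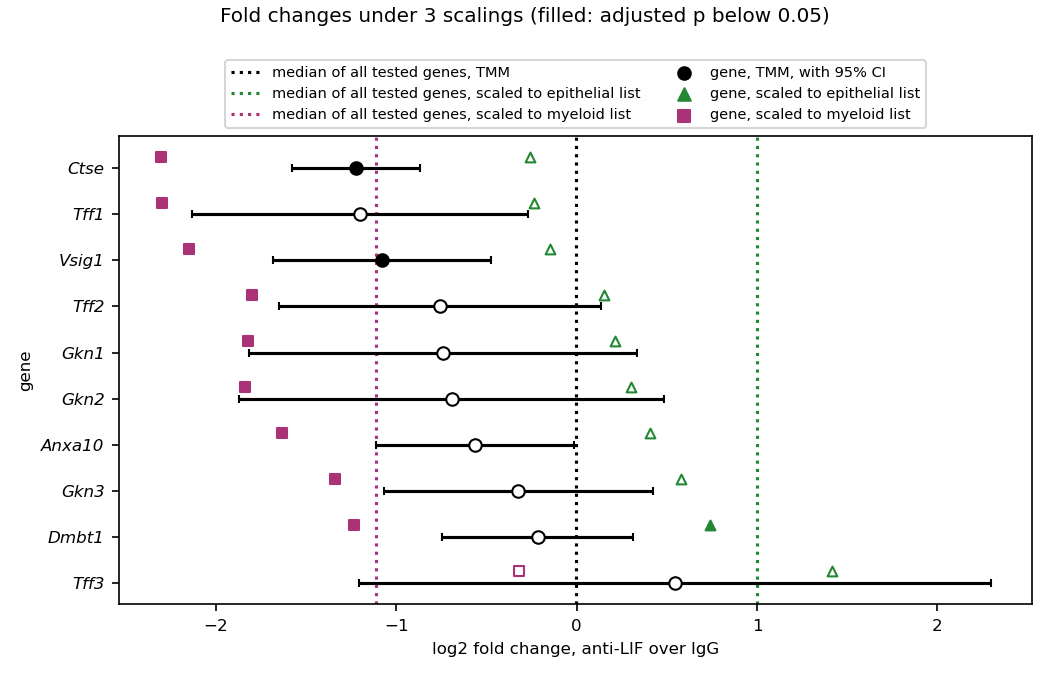
Log2 fold change of each gene, anti-LIF over IgG, with TMM scaling (circles with 95% intervals) and with libraries scaled to the epithelial (triangles) or the myeloid list (squares); filled symbols have an adjusted p below 0.05. Dotted lines mark the median of all tested genes, at −0.01, 1.00 and −1.11. With TMM scaling 9 of the 10 circles lie below 0, as do 7448 of all 14711 tested genes.

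Per transcript length, the order of the mean levels with IgG was Dmbt1 (520 FPKM), Tff2 (466), Ctse (287), Tff1 (244), Gkn3 (181), Gkn1 (55.4), Gkn2 (33.4), Tff3, Anxa10 (13.2) and Vsig1 (6.73). The IgG ranges of the first 5 overlapped in neighbouring pairs: Tff2, for example, ran from 268 to 699 FPKM and covered the whole range of Dmbt1, 445 to 614. Gkn3, whose lowest IgG library had 127 FPKM, lay above Gkn1, whose highest had 64.0. Gkn1 and Gkn2 did not overlap either, with 47.6 as the lowest of the first and 41.7 as the highest of the second. Tff3, at 11.2 to 33.6 FPKM, overlapped both Gkn2 and Anxa10, and Vsig1 lay below Anxa10 in every library. With anti-LIF, Gkn3 (135 FPKM) came before Ctse (113) and Tff1 (97.7), all with overlapping ranges. The deposited FPKM of Dmbt1 refers to another of its transcripts, 6194 bases long against 6226 in the count table.

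The libraries of an arm were not alike across the 10 genes. Anti-LIF library PCC_310_GA was the highest of its arm for 9 genes, all but Gkn3, and library PCC_354_GA was the lowest of its arm for 7. Those 7 were Tff1, Tff2, Gkn1, Gkn2, Ctse, Anxa10 and Vsig1, and in each of them library PCC_354_GA was also the lowest of all 8 libraries. The other 3 genes, Tff3, Gkn3 and Dmbt1, were lowest in library PCC_227_GA. Among IgG libraries, PCC_345_G was the highest for 5 genes, and PCC_203_G and PCC_393_G were each the lowest for 4. Epcam was lowest in library PCC_227_GA (194 CPM) and stood at 326 to 353 CPM in the other 3 anti-LIF libraries, PCC_354_GA being the highest of them, all below the lowest IgG library (479 CPM). The part of these Epcam levels in the values of single libraries was not tested.

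Other genes were ranked by likeness to each member, measured as the mean absolute distance between log2 CPM values over the 8 libraries, each gene centred on its own mean. Gkn1 and Gkn2 were nearest to each other (distance 0.23), and the next nearest to Gkn2 was Muc5ac, the gel-forming mucin of gastric pit cells (0.32). Muc5ac stood at 21.7, 36.5, 33.9 and 29.4 CPM with IgG and at 22.3, 27.2, 5.25 and 28.0 CPM with anti-LIF, with the same drop in library PCC_354_GA. Tff3 was nearest to Fcgbp (0.27) and Muc2 (0.29), which encode a mucus protein that binds mucin and the intestinal goblet cell mucin. Muc2 stood at 9.46, 4.23, 10.6 and 7.46 CPM with IgG and at 3.19, 33.5, 17.7 and 3.43 CPM with anti-LIF, high in libraries PCC_310_GA and PCC_354_GA like Tff3. Gkn3 was nearest to Agr2 (0.13), a disulfide isomerase that folds mucins, and then to Tmem116 (0.15). Tmem116 had few counts, from 10 in library PCC_227_GA to 41 in library PCC_345_G. Anxa10 had Gpd1 (0.12) and the membrane mucin Muc1 (0.13) beside it.

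Ctse was nearest to Snhg3 (0.06) and to the transcription factor gene Mecom (0.08), both of which were called lower by about the same amount. Mecom fell by 1.26 on the log2 scale (adjusted p = 0.00397). Vsig1 was nearest to Liph (0.13), Tff2 to Per1 (0.22) and Dmbt1 to Gstt1 (0.07). These distances are descriptions over 8 libraries that share an arm difference, and among 14711 genes some will be close to any pattern.

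**Figure D4:**
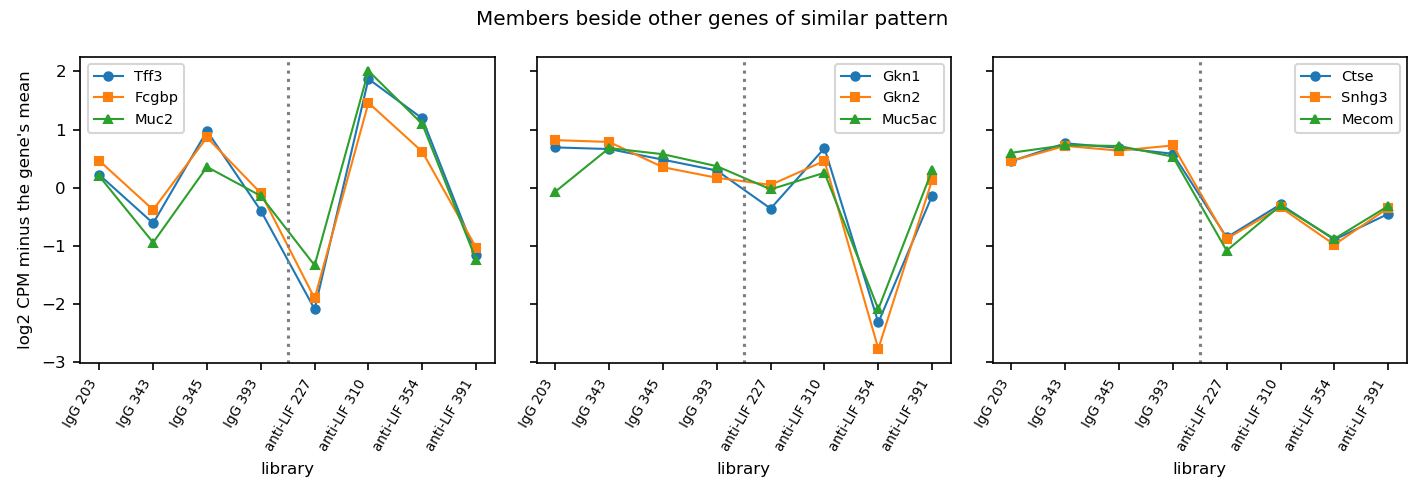
Log2 CPM minus the gene's own mean in each library for Tff3, Ctse and the Gkn1 and Gkn2 pair beside genes close to them in pattern; lines join the points of 1 gene and a dotted line separates the arms. Tff3, Fcgbp and Muc2 peak in anti-LIF library PCC_310_GA, Gkn1, Gkn2 and Muc5ac drop in library PCC_354_GA, and the Ctse panel steps down between the arms.

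Genes next to the members on the chromosome did not share their direction throughout. Abcg1, 7.33 kb from Tff3, was called lower (−0.79, adjusted p = 0.00913). Rab7b, 13.2 kb from Ctse, was called higher (0.75, adjusted p = 0.0314), from 24.4 ± 6.27 to 40.9 ± 8.31 CPM, where Ctse fell. Both neighbours of Anxa10 were called, Ddx60 at 19.3 kb higher (1.41, adjusted p = 0.0353) and Spock3 at 828 kb lower (−2.47, adjusted p = 0.00990). Antxr1, 9.88 kb from Gkn1, stood at 9.17 ± 2.15 and 12.9 ± 1.60 CPM (adjusted p = 0.0644), and Psmd10, 8.95 kb from Vsig1, at 19.1 ± 1.00 and 20.9 ± 1.41 CPM (adjusted p = 0.292). Htra1, 46.4 kb from Dmbt1, differed by −0.47 and did not pass (adjusted p = 0.249). Among all tested genes 16.5% were called lower and 15.7% higher.

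Other genes of the gastric programme were taken from lists by role. Of 18 tested transcription factors of the foregut and stomach, 10 were called lower and 0 higher, with a median of −0.79. Among all tested genes 16.5% were called lower and 15.7% higher. Of the 35 epithelial identity genes, 29 were called lower and 0 higher, with a median of −0.89. Foxa1, a pioneer factor of foregut endoderm, fell 2.12-fold, from 5.49 ± 1.49 to 2.59 ± 0.443 CPM (adjusted p = 0.0107), and differed by −0.10 and did not pass on the epithelial scale (adjusted p = 0.756). Gata4 fell from 23.0 ± 3.99 to 13.9 ± 2.17 CPM (−0.73, adjusted p = 0.0112), but stood at 0.28 and did not pass when scaled to the epithelial list. The related Gata5 and Gata6, named after their values were seen, differed by −0.82 and −0.44 and did not pass (adjusted p = 0.137 and 0.0859). Sox2, the stomach-type endoderm factor, was not tested, with 2 counts over the IgG arm and 1 over the anti-LIF arm. The median of these factors was 0.19 on the epithelial scale, with 0 called lower and 5 higher, where 1.26% of all tested genes were called lower and 75.7% higher.

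Of 15 tested genes of pit cells, 9 were called lower and 2 higher, with a median of −1.05. The shares over all tested genes were 16.5% lower and 15.7% higher, and the epithelial list had a median of −0.89. Krt20, a keratin of surface epithelium, went from 112 ± 23.7 to 35.1 ± 14.0 CPM (−1.68, adjusted p = 0.00492), and Gcnt3, a mucin glycosyltransferase, from 75.3 ± 7.47 to 34.5 ± 12.5 CPM (−1.13, adjusted p = 0.00936). On the epithelial scale Krt20 still passed (−0.73, adjusted p = 0.0125) and Gcnt3 did not (−0.20, adjusted p = 0.374). The 2 genes called higher, named after their values were seen, were the glycosyltransferase gene Gcnt1 (0.61) and the prostaglandin receptor gene Ptger3 (0.65). Muc5ac itself did not pass, at 30.4 ± 6.51 and 20.7 ± 10.6 CPM (adjusted p = 0.343). Scaled to the epithelial list the pit list had a median of −0.14, with 2 genes called lower and 3 higher. On that scale 1.26% of all tested genes were called lower and 75.7% higher, and their median was 1.00.

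Of 16 tested genes of mucous neck cells and SPEM, 6 were called lower and 0 higher, with a median of −0.67. The shares over all tested genes were 16.5% lower and 15.7% higher, and the epithelial list had a median of −0.89. Clu, a secreted chaperone, fell from 11395 ± 1198 to 6330 ± 1066 CPM (adjusted p = 0.0127), and Mal2, a protein of apical transport, from 51.8 ± 5.25 to 29.5 ± 9.24 CPM (adjusted p = 0.0215). Both turned to small positive values scaled to the epithelial list (0.12 and 0.14). Clu did not pass by limma-trend on FPKM with a pseudocount of 1 or 0.1 (adjusted p = 0.0681 and 0.0549). Mal2 no longer passed without IgG library PCC_343_G or anti-LIF library PCC_391_GA (adjusted p = 0.0592 and 0.0525). Muc6, the mucin of neck cells, named after its values were seen, ran from 49.1 to 166 CPM with IgG and from 23.2 to 72.3 CPM with anti-LIF and did not pass (adjusted p = 0.119). With the epithelial list as the base the median was 0.26, with 0 lower and 6 higher calls. On that scale 1.26% of all tested genes were called lower and 75.7% higher, and their median was 1.00.

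Intestinal genes took no part in the lower calls. Of 10 tested, 0 were called in either direction, where 16.5% of all tested genes were called lower and 15.7% higher. The median of the list was 0.76. Scaled to the epithelial list 7 of the 10 were called higher, with a median of 1.67, near the 75.7% of all tested genes called higher on that scale. Fcgbp, which had the highest mean CPM of the list with IgG, ran from 55.6 to 132 CPM with IgG and from 19.3 to 199.5 CPM with anti-LIF, a wider spread than between arms (adjusted p = 0.967). Zg16, which is also on the acinar list, had a higher mean than Fcgbp with anti-LIF (153 ± 123 against 91.4 ± 82.5 CPM). Over the 4 lists 25 genes were called lower, and without IgG library PCC_343_G, IgG library PCC_345_G, IgG library PCC_393_G or anti-LIF library PCC_354_GA that count was 13, 14, 13 and 13. The share of all tested genes called lower fell as well, from 16.5% to 10.2%, 13.1%, 12.3% and 10.2% in that order.

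**Figure D5:**
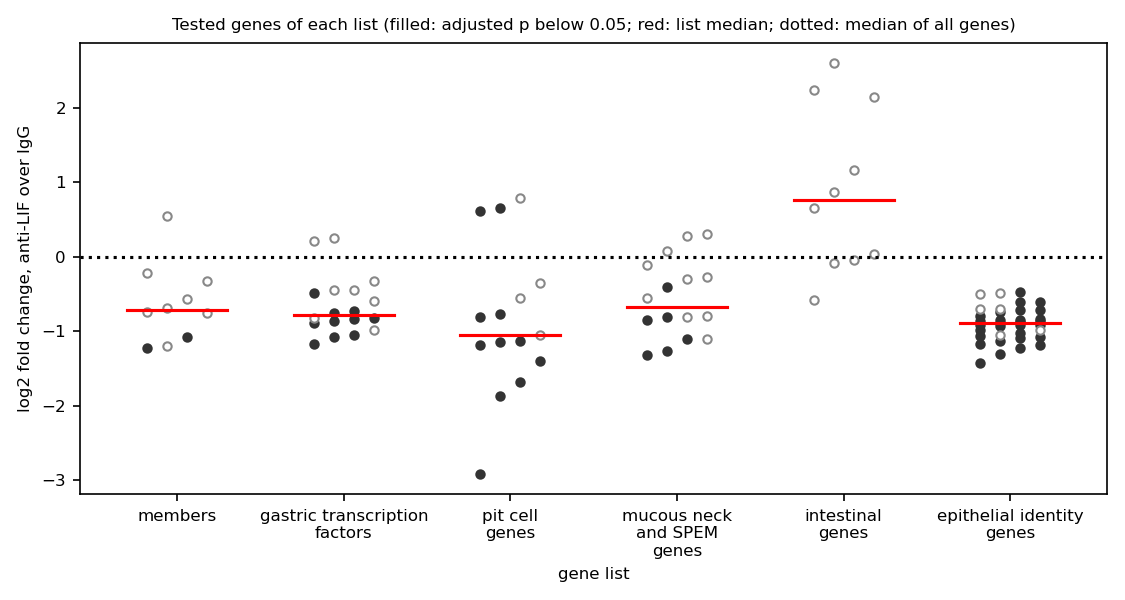
Log2 fold change, anti-LIF over IgG, of every tested gene in the 10-gene set (members), the 4 lists of gastric and intestinal genes and the epithelial identity list, with filled points for an adjusted p below 0.05, a red line at each list's median and a dotted line at the median of all genes. Medians lie at −0.72 for the 10 genes, −0.89 for the epithelial list and 0.76 for intestinal genes.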

How the data were processed

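RNA was measured in 8 libraries of cells sorted for EpCAM from pancreatic tumours. By the labels, 4 were from mice given gemcitabine with control IgG and 4 from mice given gemcitabine with anti-LIF. Per the submitters' processing notes and the file headers, reads were checked with FastQC 0.11.2, aligned to mm10 with STAR 2.4.0k and counted over exons with HOMER, with 1 transcript kept for each gene. The sources used here do not give the strand setting, the annotation version or read filters. Raw counts fill the first deposited table, and the other deposited table holds FPKM of the same libraries, scaled by transcript length and library total. The notes also name edgeR 3.6.8, whose output was not used. The smallest library had 18954525 reads in total and the largest 24681702, per the file headers.

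The main test was run on the counts in edgeR 4.0.16 under R 4.3.3: filterByExpr at its defaults, TMM scaling, the quasi-likelihood test over all tested genes, Benjamini-Hochberg adjustment and a threshold of 0.05. Standard errors are the log2 fold change divided by the square root of F, and CPM use TMM library sizes. Alternatives used DESeq2 1.42.0 and limma 3.58.1 (voom, and trend on log2(FPKM + 1) or log2(FPKM + 0.1)), other scalings, no filter or CPM above 1 in at least 4 libraries, and each library left out. Ratios were compared by an exact permutation over 70 assignments. The scripts were tested on simulated counts. The genes and lists were chosen with earlier results of these data known. Genes named are the 10 themselves, Epcam, Lif, the 2 lowest p of each list (or its most abundant gene where none passed) and the 2 nearest in pattern to each of the 10. Not all of these nearest genes are listed, neighbouring genes on the chromosome were added after the data were seen, and any other gene was chosen after its values were seen. Exon numbers are from GENCODE M21, matched by RefSeq transcript, and promoters from RefSeq (GRCm38.p6). No pairing of mice is given, since no mouse number occurs in both arms. A further allele of the mice is not reported here.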

Additional observations from a re-analysis of the deposited data

How the results depend on the processing

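For the 10 genes, 150 of 180 values under an alternative kept both their sign and their side of the threshold. The count of 2 called lower (16.5% of all tested genes) ranged from 2 to 4 with 1 library left out (10.2% to 14.3%). It was 4 with limma-trend at FPKM pseudocounts of 1 and 0.1 (23.1% and 22.7% of all tested genes were called lower). Scaled to the myeloid list it was 9 (81.9%), and scaled to the epithelial list it was 0 (1.26%). The count called higher was 0 with each library left out (9.89% to 14.9% of all tested genes) and 1 scaled to the epithelial list (75.7%). Signs turned scaled to the epithelial list for Tff2 (0.15), Gkn1 (0.21), Gkn2 (0.30), Gkn3 (0.58), Anxa10 (0.41) and Dmbt1 (0.74). That of Tff3 turned scaled to the myeloid list (−0.32), by limma-voom (−0.11), by limma-trend (−0.17 and −0.23 with pseudocounts of 1 and 0.1) and without anti-LIF library PCC_310_GA (−0.20), and it ranged up to 0.95 with another library left out.

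These alternatives were run on the other gastric and intestinal genes after the data were seen. Their 25 lower calls (16.5% of all tested genes) became 2 scaled to the epithelial list (1.26%) and 45 scaled to the myeloid list (81.9%). With 1 library left out, 13 was the lowest and 28 the highest count (10.2% to 14.3% of all tested genes). Their 2 higher calls (15.7% of all tested genes) became 0 by library size alone (9.72%) and by limma-trend at pseudocounts of 1 (10.5%) and 0.1 (10.4%). They became 21 scaled to the epithelial list (75.7%), 1 scaled to the myeloid list (1.16%), and 1 to 2 with 1 library left out (9.89% to 14.9%). Scaled to the epithelial list, signs turned for Gata4 (0.28), Clu (0.12) and Mal2 (0.14). Fcgbp turned by library size alone (−0.076), scaled to the myeloid list (−0.85), by limma-voom (−0.43), by limma-trend (−0.41 and −0.54) and without IgG library PCC_343_G (−0.13), IgG library PCC_393_G (−0.07), anti-LIF library PCC_310_GA (−0.68) or anti-LIF library PCC_354_GA (−0.07), with 0.38 as its highest value when 1 library was left out. The cause of these changes was not tested.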
